A study of Homo sapiens with 16 samples.

Results

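Among 78 genes named as mitochondrial ribosomal proteins, 3, 6 and 20 were called lower at 48 h with the compounds 5G6, 6D7 and 7F8 than with DMSO. These were 3.85, 7.69 and 25.6%, where 2.11, 3.58 and 6.5% of all genes were called lower. Under another scaling of the libraries 1, 2 and 3 were called (1.28, 2.56 and 3.85%), about the share of all genes called lower (1.34, 3 and 3.66%). With the replicate number fitted as a block more were called with each compound. Those counts are in the last section, without the share of all genes. The genes were chosen by name, as every gene called MRPL or MRPS followed by a number and at most 1 further letter, and the 78 stand among 39550 gene names outside the mitochondrial genome. All 78 were tested, among 15958 genes that reached 1 TPM (the deposited expression unit, a gene's length-corrected share of the RNA in a library) in at least 2 libraries. The RNA came from A549, an established human lung adenocarcinoma line, in which the exosome marker CD63 fused to the luciferase Nluc was overexpressed in all groups, DMSO included. Cells received DMSO, 5G6, 6D7 or 7F8, each labelled 4 µM in every group, DMSO too, for 4 h or 48 h, and polyA RNA of 2 replicates per group was sequenced, giving 16 libraries in 8 groups. The series title places the study in the control of exosome release by AMPK and SREBP signalling. The structures of the compounds are not given in the sources used here.

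The mitochondrial ribosome is a separate ribosome inside the organelle that makes the few proteins encoded by mitochondrial DNA, which are core subunits of the respiratory chain and ATP synthase. Its ribosomal RNAs come from mitochondrial DNA, whereas all of its proteins are encoded in the nucleus, made in the cytosol and imported. Some of the proteins have counterparts in bacterial ribosomes, and others occur only in mitochondrial ribosomes. The nuclear factors NRF1, YY1, MYC and the ETS-family factor GABP are known regulators of nuclear genes for mitochondrial proteins.

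By name, 49 of the 78 genes were MRPL genes and 29 were MRPS genes. By the ribosome's own nomenclature 46 encoded proteins shared with bacteria and 31 encoded mitochondria-specific proteins. MRPS18A and MRPS30 carry a small-subunit name, although both proteins sit in the large subunit. MRPS36, also called KGD4, is now known as a component of the 2-oxoglutarate dehydrogenase complex and was kept because the rule is by name.

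Promoter sequences were searched for motifs of known regulators, none of which was in all of the genes. RefSeq's promoter table (GRCh38.p14, 250 bases before to 50 after each start) held 69 of the 78 genes. The ETS-type motif CCGGAAG, searched on both strands, was present in 29 of the 69 (42.0%) and in 10.7% of 27305 promoters in the table. The core AAGATGG of the YY1 motif was present in 23 (33.3%), against 6.06% of all promoters, and a longer form of this motif in 10 (14.5%), against 0.916%. The core GCATGCG of the NRF1 motif was in 7 (10.1%, against 4.13%). A longer form of the NRF1 motif was in 8 (11.6%), against 6.285% of all promoters and 8.58% of coding promoters. The E-box CACGTG was in 6 (8.70%, against 7.43%), GGGCGG in 42 (60.9%, against 44.6%) and CCAAT in 20 (29%, against 35.7%). Among protein-coding promoters alone the ETS-type motif was in 14.2%, AAGATGG in 6.40%, GCATGCG in 5.14%, CACGTG in 8.88%, GGGCGG in 58.5% and CCAAT in 36.4%, so that the share with CACGTG was not above that of coding promoters and the share with GGGCGG was near it. A match describes letters in the window and does not show that a factor binds there.

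The 150 bases upstream of the start are shown for 4 genes that were called lower with 7F8 at 48 h (MRPL3, MRPS34, MRPS23 and MRPL58) and for MRPL54, which was not, because all 5 hold the ETS-type motif. Sequences run 5′ to 3′ on the gene's strand, and capitals mark CCGGAAG or its reverse complement CTTCCGG. MRPL3 lies at chr3:131502972-131503121 on the minus strand, MRPS34 at chr16:1773135-1773284 (minus), MRPS23 at chr17:57850045-57850194 (minus), MRPL58 at chr17:75012520-75012669 (plus) and MRPL54 at chr19:3762532-3762681 (plus).
MRPL3: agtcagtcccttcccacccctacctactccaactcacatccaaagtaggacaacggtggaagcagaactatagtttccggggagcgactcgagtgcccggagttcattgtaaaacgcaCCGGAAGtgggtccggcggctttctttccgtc
MRPS34: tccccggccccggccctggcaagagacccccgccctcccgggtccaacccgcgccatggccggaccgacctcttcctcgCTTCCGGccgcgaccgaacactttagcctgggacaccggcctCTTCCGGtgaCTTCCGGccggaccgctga
MRPS23: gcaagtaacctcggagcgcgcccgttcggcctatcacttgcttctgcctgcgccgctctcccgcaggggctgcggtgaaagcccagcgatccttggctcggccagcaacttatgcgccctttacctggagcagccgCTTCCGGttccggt
MRPL58: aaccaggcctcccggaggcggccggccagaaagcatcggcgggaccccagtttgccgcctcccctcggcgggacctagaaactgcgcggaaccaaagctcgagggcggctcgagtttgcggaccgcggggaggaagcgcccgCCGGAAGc
MRPL54: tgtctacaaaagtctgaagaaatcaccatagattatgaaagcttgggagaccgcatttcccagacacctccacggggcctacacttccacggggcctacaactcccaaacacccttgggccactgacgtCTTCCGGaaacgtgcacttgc
MRPS34 holds 3 copies and each of the other four genes holds 1 in this stretch.

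The libraries held 6.10 to 8.86 gigabases of aligned sequence, and 13378 to 14909 gene names reached 1 TPM in each. Genes of the mitochondrial genome took 18.9 to 32.5% of the deposited TPM in 14 libraries, and only 6.13 and 6.48% in the pair treated with 6D7 for 48 h. That low share was not a like fall of all mitochondrial genes. The mitochondrial ribosomal RNAs, ND1 and ND6, given below, did not fall to that extent. Mitochondrial genes were dropped by the rule that chose the family and the rest rescaled to the same sum in each library. For 6D7 at 48 h the median and the counts of calls are also given with mitochondrial genes kept, and all other 6D7 values with them dropped. Of 8 epithelial or A549 markers 7 were at or above 1 TPM in all 16 libraries, the exception being EPCAM (0.375 to 11.4 TPM). The alveolar markers SFTPB, SFTPC and NKX2-1 and the endothelial markers PECAM1, VWF and CDH5 were below 1 TPM throughout. Of 5 fibroblast markers 4 were below 1 TPM throughout, with COL1A1 at 2.79 to 20.8 TPM, and of 6 blood markers 4 were below 1 TPM, CD14 and CD68 being the others.

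All 78 genes were expressed at 10 TPM or more in all 16 libraries, the lowest single value being 12.2 TPM. Their means over the 16 libraries ran from 18.7 to 347 TPM with a median of 76.6 TPM. The highest mean was that of MRPL41, a mitochondria-specific protein of the large subunit, followed by MRPL12, the stalk protein that recruits translation factors (337.5 TPM), and MRPS12, a protein of the decoding centre (317 TPM). The lowest means were those of MRPL50 (18.7 TPM), MRPS31 (19.4 TPM) and MRPS14 (21.4 TPM). MRPL41 and MRPL12 differed by less than the spread of either over libraries, since MRPL41 ranged from 264 to 453 TPM and MRPL12 from 181 to 508 TPM.

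Summed over the 78 genes, the level was 9297 and 9554 TPM in the DMSO libraries at 4 h and 8761 and 7852 TPM at 48 h. At 48 h it was 6937 and 6328 TPM with 5G6, 6924 and 6629 TPM with 6D7, and 5742 and 5828 TPM with 7F8. All 6 compound libraries at 48 h lay below both DMSO libraries of that hour, and the means lay below the DMSO mean by 20.1% with 5G6, 18.4% with 6D7 and 30.4% with 7F8. These sums depend on the scaling. Median-of-ratios size factors at 48 h were 1.04 and 1.17 with DMSO, 0.965 and 1.11 with 5G6, 0.989 and 1.10 with 6D7, and 0.903 and 0.997 with 7F8. Divided by them, the 5G6 and 6D7 sums would overlap those of DMSO, and the 7F8 sums would still lie below. At 4 h the sums were 9382 and 7998 TPM with 5G6, 8971 and 9150 TPM with 6D7, and 8419 and 7852 TPM with 7F8, and the 5G6 pair overlapped the DMSO pair while the others lay below it. The means at 4 h were 7.80, 3.88 and 13.7% below DMSO in the same order. In bulk RNA fewer transcripts per cell and fewer cells that express a gene cannot be told apart, and TPM gives a share of the RNA, not an amount per cell.

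The MRPL and MRPS genes are given apart by name only, since the MRPS names include MRPS18A, MRPS30 and MRPS36. The summed MRPL level at 48 h was 20.02, 17.9 and 29.8% below DMSO with 5G6, 6D7 and 7F8, and the summed MRPS level 20.4, 19.4 and 31.5% below. A difference between them was not tested. The ratio of MRPL to MRPS TPM stayed between 1.81 and 2.19 over the 16 libraries, and both of these extremes came from the 6D7 pair at 48 h.

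**Figure D1:**
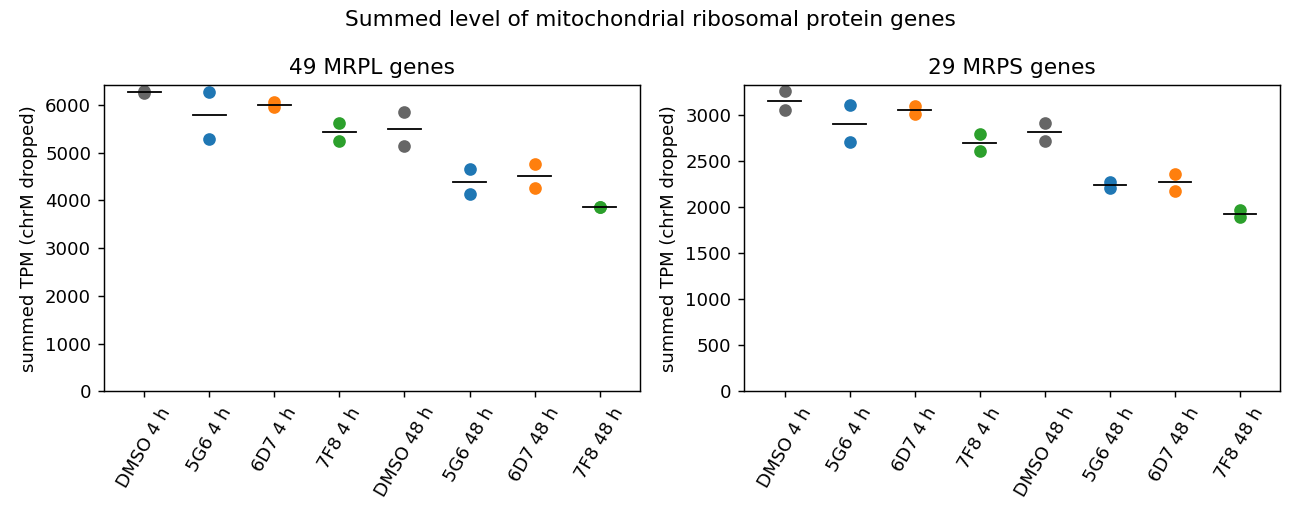
Summed TPM of the 49 MRPL genes (left) and the 29 MRPS genes (right) in each library, with mitochondrial genes dropped; points are libraries and bars are means of 2 replicates. In both panels the 6 compound libraries at 48 h lie below the 2 DMSO libraries at 48 h, and the 7F8 pair is lowest.

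The first comparison asks which of the genes differed from DMSO after 4 h. None of the 78 was called in any of the 3 comparisons, by limma across all 15958 genes at a Benjamini-Hochberg adjusted p under 0.05, where the share of all genes called was also 0%. At an unadjusted p under 0.05, 1 gene passed with 5G6, 0 with 6D7 and 15 with 7F8, all lower, where 3.25, 1.13 and 5.43% of all genes passed. The median log2 fold change over the 78 genes, on the log2(TPM + 1) scale, was −0.12 with 5G6, −0.05 with 6D7 and −0.26 with 7F8, where the medians over all tested genes were 0.11, 0.01 and −0.11.

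With 7F8 at 4 h both libraries lay below both DMSO libraries for 53 of the 78 genes (67.9%), where this held for 23.4% of all tested genes. With 5G6 and 6D7 it held for 27 genes each, against 7.9 and 9.49% of all genes. With size factors by the median of ratios, which set the typical gene to no change, these counts moved to 29 with 7F8 (37.2%, against 16.3% of all genes), 39 with 5G6 (50%, against 14.6%) and 14 with 6D7 (17.9%, against 10.3%). The smallest p-values with 7F8 belonged to MRPL15, MRPL36 and MRPL3. MRPL15, a core large-subunit protein, was at 104.5 and 100.4 TPM with DMSO and at 66.8 and 66.7 TPM with 7F8 (log2 fold change −0.61, SE 0.14, adjusted p = 0.663). MRPL36, the mitochondrial form of bacterial L36, was at 134 and 134 TPM with DMSO and at 87.5 and 81.3 TPM with 7F8 (−0.66, SE 0.16, adjusted p = 0.663). MRPL3 was at 126 and 121.5 TPM with DMSO and at 87.1 and 83.5 TPM with 7F8 (−0.53, SE 0.15, adjusted p = 0.733). In all 3 genes the groups did not overlap, but no difference passed the threshold by limma.

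After 48 h, 20 of the 78 genes (25.6%) were called lower with 7F8, where 6.5% of all tested genes were called lower, and 8.79% in either direction. With 6D7, 6 (7.69%) were called lower, where 3.58% of all genes were lower and 5.97% were called either way. With 5G6, 3 (3.85%) were called lower, where 2.11% of all genes were lower and 4.06% were called either way. No gene of the family was called higher in any of the 3 comparisons by limma, where 2.29, 2.39 and 1.95% of all genes were called higher with 7F8, 6D7 and 5G6. At an unadjusted p under 0.05, 53, 29 and 35 passed with 7F8, 6D7 and 5G6, all lower, where 24.6, 21.5 and 19% of all genes passed in either direction. The 3 comparisons use the same DMSO pair, so their counts are not independent of each other. The shares over all genes were not matched for level. They include genes that reached 1 TPM in only 2 libraries, whereas all 78 were at 10 TPM or more in all 16.

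These counts rest on single libraries, on how libraries are scaled to each other and on whether the replicate number is fitted as a block. The counts with a block, 1 gene called higher among them, are given in the last section. Leaving out any 1 of the libraries compared lowered the counts of the fit without a block with 7F8 and 5G6. With 6D7 it moved them either way. With mitochondrial genes kept in the sum none was called with 6D7. The share of all genes called in these runs is not given here. With the median-of-ratios size factors, 3 of the 78 genes (3.85%) were called with 7F8, where 3.66% of all genes were called lower, and 2 (2.56%, against 3%) and 1 (1.28%, against 1.34%) were called with 6D7 and 5G6. This scaling also moved the split of all called genes, from 365 higher and 1038 lower to 557 and 583 with 7F8, and from 311 and 337 to 368 and 213 with 5G6.

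The shift of the family as a whole was present under both scalings. The median log2 fold change over the 78 genes at 48 h was −0.40 with 5G6, −0.33 with 6D7 and −0.55 with 7F8, beside −0.07, −0.06 and −0.18 over all tested genes. With the median-of-ratios size factors the family's medians were −0.31, −0.25 and −0.34, beside 0.01, 0.01 and 0.00. The family's median less that of all genes was thus −0.33, −0.27 and −0.37, and −0.32, −0.26 and −0.34 with the size factors. A gap of like size was present without a compound. Between the DMSO groups, 48 h against 4 h, it was −0.34, and −0.36 with the size factors. With mitochondrial genes kept in the sum, the 6D7 median turned to 0.08, beside 0.28 over the same 15958 genes. Both libraries lay below both DMSO libraries for 58 of the 78 genes with 5G6 (74.4%, against 28.7% of all genes), 50 with 6D7 (64.1%, against 27.1%) and 65 with 7F8 (83.3%, against 38.7%). With the size factors these were 33 (42.3%, against 24.8%), 37 (47.4%, against 24.1%) and 46 (59%, against 27.3%).

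**Figure D2:**
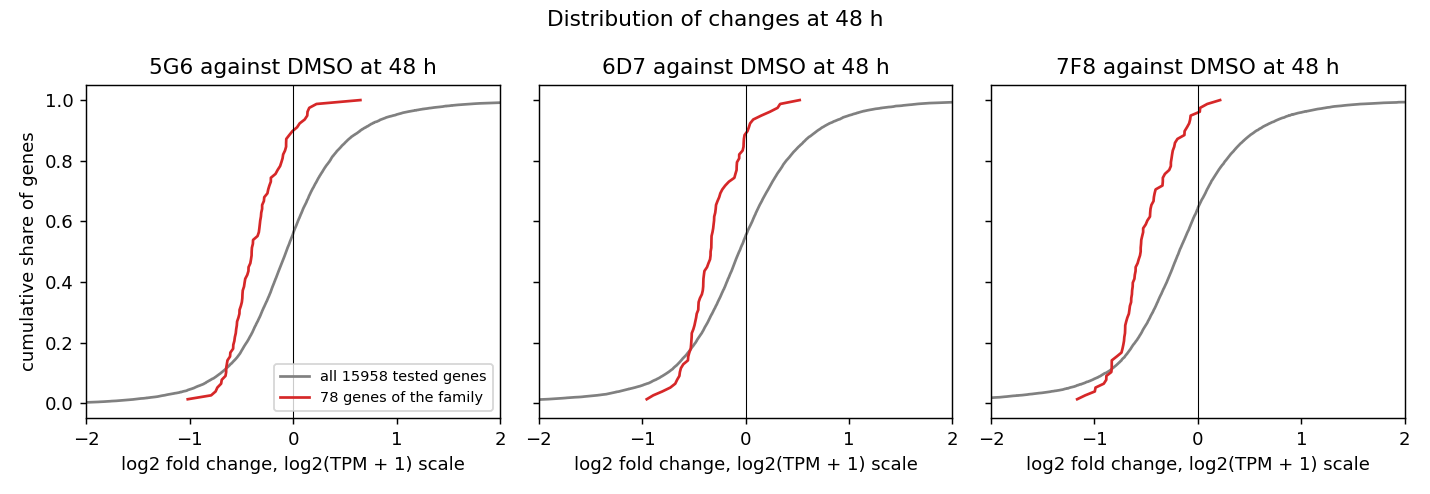
Cumulative share of genes (vertical) by log2 fold change against DMSO at 48 h on the log2(TPM + 1) scale (horizontal), for the 78 genes in red and all 15958 tested genes in grey; each panel is 1 compound. The red curve lies left of the grey curve over most of its height in each panel, with medians of −0.40, −0.33 and −0.55 against −0.07, −0.06 and −0.18.

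MRPL3, the mitochondrial form of ribosomal protein L3 at the core of the large subunit (chromosome 3, GRCh38 131462212 to 131502971), was the gene called in all 3 comparisons. At 48 h it was at 131 and 122 TPM with DMSO, 59.1 and 64.9 TPM with 5G6, 88.1 and 75.9 TPM with 6D7, and 55.5 and 56.1 TPM with 7F8. All 6 compound libraries were below both DMSO libraries, and the 6D7 pair lay between the DMSO pair and the other compounds. The log2 fold changes were −1.02 with 5G6 (SE 0.15, limma adjusted p = 0.00788), −0.62 with 6D7 (SE 0.15, adjusted p = 0.0320) and −1.17 with 7F8 (SE 0.15, adjusted p = 0.00221). The 7F8 call was kept under all 13 alternative settings, with adjusted p from 0.000622 to 0.0444.

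MRPL16, near the peptidyl transferase centre (chromosome 11), was called with 5G6 and 6D7. It was at 84.2 and 80.3 TPM with DMSO at 48 h, 49.6 and 51.5 TPM with 5G6, 40.6 and 53.6 TPM with 6D7, and 60.8 and 58.2 TPM with 7F8. Every compound library was below both DMSO libraries, and the 7F8 pair was nearest to DMSO. The log2 fold changes were −0.69 with 5G6 (SE 0.17, adjusted p = 0.0443) and −0.80 with 6D7 (SE 0.17, adjusted p = 0.0202).

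MRPL12, MRPL24, MRPL15 and MRPS23 were called with both 6D7 and 7F8. MRPL12 was at 430 and 336 TPM with DMSO at 48 h, 237 and 215 TPM with 5G6, 181 and 230.5 TPM with 6D7, and 187 and 195 TPM with 7F8. Its DMSO values were far apart, yet all 6 compound libraries lay below the lower of them. The log2 fold changes were −0.89 with 6D7 (SE 0.19, adjusted p = 0.0233) and −0.99 with 7F8 (SE 0.19, adjusted p = 0.0125), and −0.75 with 5G6, which missed the threshold (adjusted p = 0.0545).

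MRPL24, at the exit of the tunnel for the growing protein chain, was at 256 and 286 TPM with DMSO, 147 and 165 TPM with 5G6, 105 and 183 TPM with 6D7, and 129 and 159 TPM with 7F8. The 6D7 replicates spread more than any other pair for this gene, and none of the compound libraries reached the DMSO range. The log2 fold changes were −0.96 with 6D7 (SE 0.22, adjusted p = 0.0305) and −0.91 with 7F8 (SE 0.22, adjusted p = 0.0271).

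MRPL15 was at 87.5 and 80.7 TPM with DMSO at 48 h, 57.3 and 57.2 TPM with 5G6, 54.3 and 59.7 TPM with 6D7, and 43.9 and 46.3 TPM with 7F8. The compound pairs were tight and far from DMSO, with log2 fold changes of −0.55 with 6D7 (SE 0.14, adjusted p = 0.0438) and −0.88 with 7F8 (SE 0.14, adjusted p = 0.0060). MRPS23, a mitochondria-specific small-subunit protein whose promoter is printed above, was at 43.3 and 36.2 TPM with DMSO, 27.0 and 26.3 TPM with 5G6, 23.3 and 26.1 TPM with 6D7, and 24.8 and 25.1 TPM with 7F8. Its log2 fold changes were −0.66 with 6D7 (SE 0.16, adjusted p = 0.0378) and −0.65 with 7F8 (SE 0.16, adjusted p = 0.0313). MRPS31, a further mitochondria-specific small-subunit protein, was called with 5G6: it was at 22.9 and 23.4 TPM with DMSO and at 14.2 and 14.6 TPM with 5G6 (−0.65, SE 0.16, adjusted p = 0.0477). The calls of MRPL16 and MRPS31 with 5G6 and of MRPL3, MRPL15 and MRPS23 with 6D7 each held under 5 of 13 alternative settings.

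**Figure D3:**
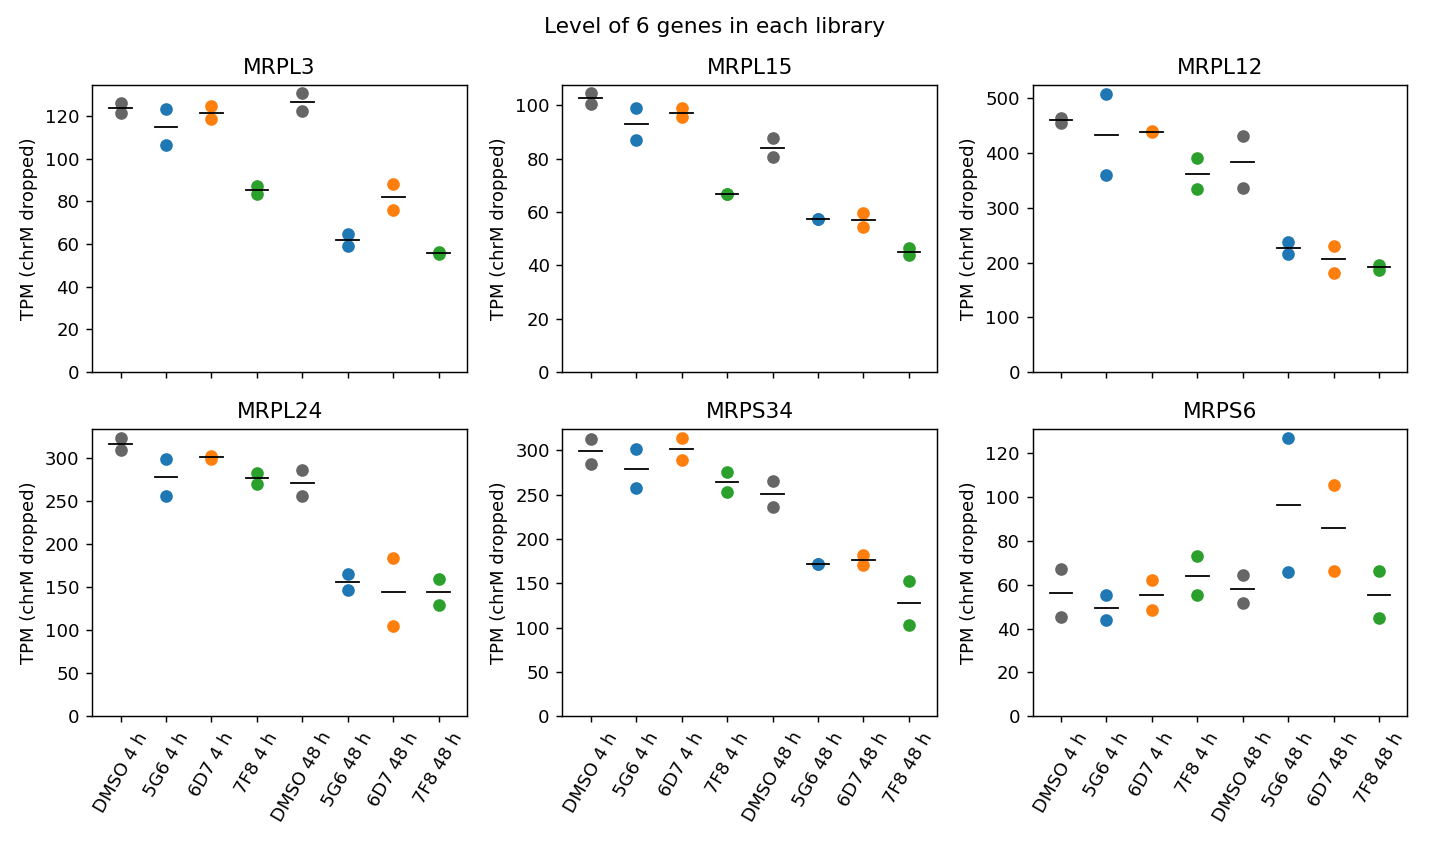
TPM of MRPL3, MRPL15, MRPL12, MRPL24, MRPS34 and MRPS6 in each library, with mitochondrial genes dropped; points are libraries and bars are means of 2 replicates, with axes from 0. In the first 5 genes every compound library at 48 h lies below both DMSO libraries of that hour, whereas MRPS6 is higher with 5G6 and 6D7 (65.7 to 127 TPM) than with DMSO (51.7 and 64.7 TPM).

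Genes called with 7F8 alone included MRPS34, MRPL23, MRPL58 and MRPS15. MRPS34, a mitochondria-specific small-subunit protein, was at 266 and 236 TPM with DMSO at 48 h and at 103 and 153 TPM with 7F8 (−0.996, SE 0.18, adjusted p = 0.0102), and at 171 to 183 TPM in the 5G6 and 6D7 libraries. MRPL23, at the exit of the tunnel, was at 195 and 170 TPM with DMSO and at 79.3 and 91.2 TPM with 7F8 (−1.09, SE 0.21, adjusted p = 0.0125). As listed, MRPL23 overlaps H19 and an antisense RNA on the other strand, and whether counting used strand is not given in the sources used here.

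MRPL58, also called ICT1, is a peptidyl-tRNA hydrolase built into the large subunit. It was at 110 and 96.2 TPM with DMSO at 48 h and at 57.7 and 56.9 TPM with 7F8 (−0.84, SE 0.18, adjusted p = 0.0170). MRPS15, which binds the small ribosomal RNA early in assembly, was at 107.5 and 109 TPM with DMSO, 97.9 and 104 TPM with 5G6, 87.7 and 119 TPM with 6D7, and 61.7 and 59.2 TPM with 7F8 (−0.83, SE 0.20, adjusted p = 0.0245). The 7F8 pair stood apart for MRPS15, while the 6D7 pair spanned the DMSO values. MRPS30 was at 41.4 and 42.0 TPM with DMSO and at 27.1 and 24.9 TPM with 7F8 (−0.66, SE 0.17, adjusted p = 0.0351). The other genes called with 7F8 were MRPL11, MRPL18, MRPL22, MRPL37, MRPL39, MRPL44, MRPL47, MRPS7, MRPS16 and MRPS18C, with log2 fold changes from −0.89 for MRPL39 to −0.56 for MRPS16.

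The paralogs MRPS18A, MRPS18B and MRPS18C, copies of the same bacterial protein that occupy different places in the ribosome, had unequal values with 7F8 at 48 h. MRPS18C was at 44.1 and 33.5 TPM with DMSO and at 26.1 and 20.7 TPM with 7F8 (−0.70, SE 0.20, adjusted p = 0.0492). MRPS18B was at 96.5 and 102.5 TPM and at 68.1 and 66.9 TPM (log2 fold change −0.55), and MRPS18A at 56.5 and 48.0 TPM and at 46.0 and 36.6 TPM (−0.34), and neither passed. A difference between the paralogs was not tested. MRPS36, the gene whose protein belongs to another complex, had log2 fold changes of −0.07, −0.22 and −0.22 with 5G6, 6D7 and 7F8.

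A few genes lay above 0: 8 with 5G6, 9 with 6D7 and 4 with 7F8, and none was called. MRPS6, a small-subunit protein shared with bacteria, was at 51.7 and 64.7 TPM with DMSO at 48 h, 65.7 and 127 TPM with 5G6, 66.3 and 105 TPM with 6D7, and 44.8 and 66.3 TPM with 7F8. The second replicate was higher than the first in all 8 groups, and the log2 fold changes were 0.65 (SE 0.35, adjusted p = 0.342), 0.52 (SE 0.35, adjusted p = 0.422) and −0.08 (SE 0.35, adjusted p = 0.914). MRPS6 overlaps SLC5A3 on the same strand, so reads of the 2 genes may not be separable. MRPL54, whose promoter is printed above, was at 106 and 59.0 TPM with DMSO, 129 and 58.7 TPM with 5G6, 159.5 and 62.5 TPM with 6D7, and 98.2 and 72.3 TPM with 7F8. Here the first replicate was the higher in every group, and the log2 fold changes of 0.14, 0.33 and 0.09 were small beside their SE of 0.47. MRPL53 and MRPL34 were also above 0 with 5G6 (0.16 and 0.23) and with 7F8 (0.02 and 0.02). With 7F8, MRPS33 had the highest value of the family, 0.21 (SE 0.19, adjusted p = 0.525).

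**Figure D4:**
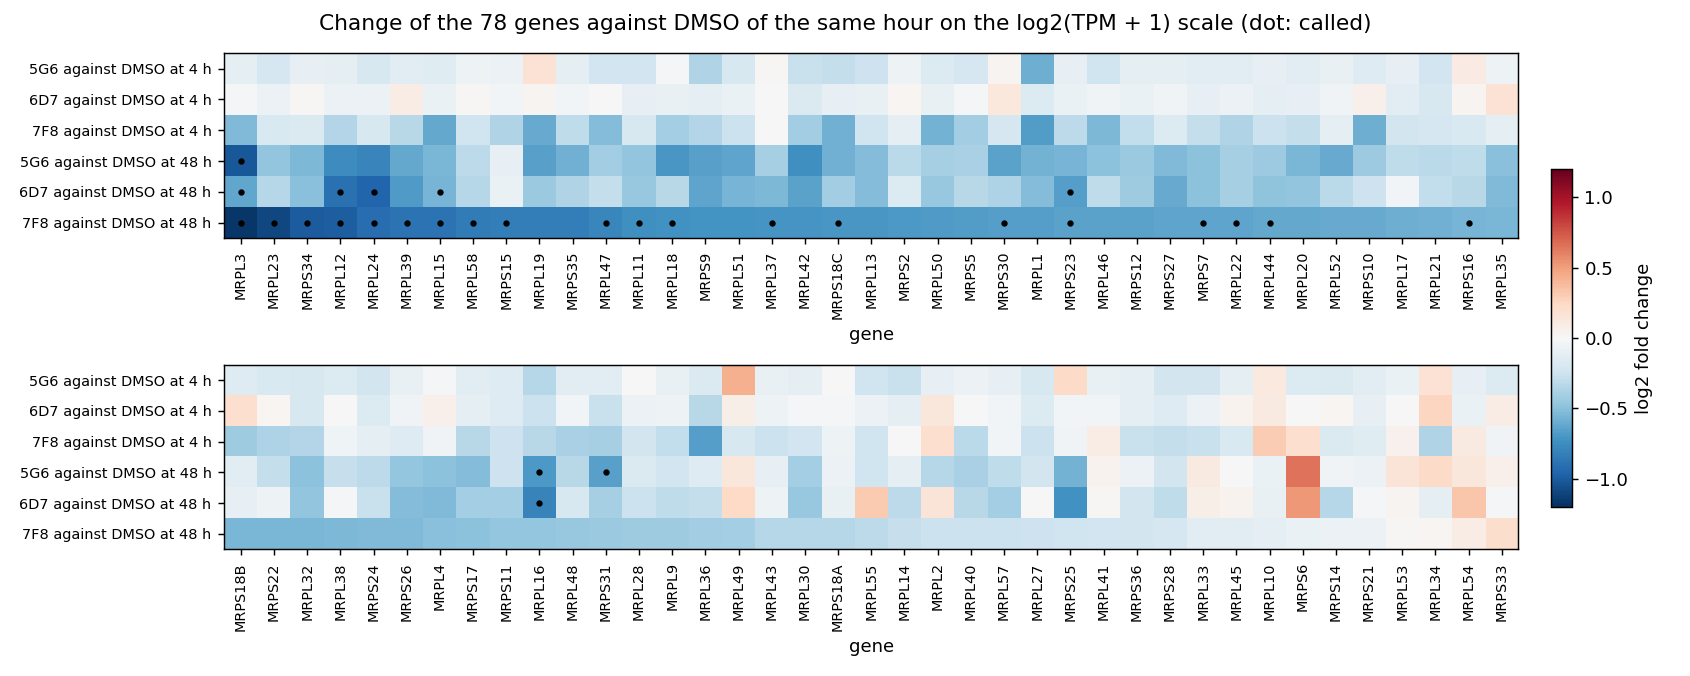
Log2 fold change against DMSO of the same hour for each of the 78 genes (columns, ordered by 7F8 at 48 h and continued in the lower panel) in the 6 comparisons (rows), on the log2(TPM + 1) scale; red is higher, blue is lower and a black dot marks an adjusted p under 0.05 by limma. Dots appear only in the 48 h rows, 3 with 5G6, 6 with 6D7 and 20 with 7F8, and all are on blue cells.

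By name, 13 of 49 MRPL genes (26.5%) and 7 of 29 MRPS genes (24.1%), MRPS30 among them, were called lower with 7F8 at 48 h, where 6.5% of all genes were, and the medians were −0.55 and −0.55. By origin, 13 of 46 genes shared with bacteria (28.3%) and 7 of 31 mitochondria-specific genes (22.6%) were called, with medians of −0.57 and −0.55. With 5G6 the medians were −0.40 for MRPL and −0.39 for MRPS genes, and with 6D7 −0.33 and −0.34. Genes with the ETS-type motif had medians of −0.39, −0.32 and −0.53 with 5G6, 6D7 and 7F8, and matched genes without it −0.40, −0.38 and −0.62. The 23 genes with AAGATGG had medians of −0.43, −0.33 and −0.61, and the other matched genes −0.36, −0.34 and −0.48. The 8 genes with the longer NRF1 motif had −0.23, −0.30 and −0.31, and the 61 without it −0.41, −0.34 and −0.60. With 7F8, 0 of these 8 and 18 of these 61 were called lower. The 7 genes with the core GCATGCG had −0.40, −0.32 and −0.60, and the other matched genes −0.40, −0.34 and −0.53. Here the split went the other way, 3 of 7 with this core and 15 of 62 without it being called lower with 7F8. For the ETS-type motif it was 7 of 29 with and 11 of 40 without, and for AAGATGG 6 of 23 and 12 of 46. Differences by motif were not tested. Single genes spread far wider than these medians, from −1.17 to 0.21 with 7F8.

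Counted over all compounds, 46 of the 78 genes had all 6 compound libraries at 48 h below both DMSO libraries, where this held for 19.2% of all tested genes. At 4 h it held for 17 genes, where it held for 1.89% of all genes. No gene of the family had all 6 above both DMSO libraries at either hour. These counts were made on the TPM scale and not with the median-of-ratios size factors.

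Whether the compounds differed from each other was tested directly in 6 comparisons, 3 at each hour, and none of the 78 genes was called in any of them by limma. With mitochondrial genes kept in the sum, 37 were called higher with 6D7 than with 7F8 at 48 h. That setting raises every nuclear gene of the 6D7 pair (6.13 and 6.48% mitochondrial TPM) against the 7F8 pair (32.3 and 31.4%). The 37 are therefore not read as a result about the family. With mitochondrial genes dropped, the share of all genes called at 4 h was 0% between 5G6 and 6D7, 0.00627% between 5G6 and 7F8 and 0% between 6D7 and 7F8. At 48 h it was 0.00627, 0.288 and 0.489% in the same order. At an unadjusted p under 0.05, 1, 5 and 10 passed at 4 h (5G6 against 6D7, 5G6 against 7F8, and 6D7 against 7F8) and 1, 7 and 14 at 48 h, where 1.19, 10, 5.77, 2.13, 9.11 and 12.7% of all genes passed. The smallest adjusted p at 48 h was that of MRPS15, which was higher with 6D7 than with 7F8 by 0.75 on the log2 scale (95% interval 0.32 to 1.18, adjusted p = 0.142) and with 5G6 than with 7F8 by 0.73 (0.30 to 1.16, adjusted p = 0.191). MRPL3 was higher with 6D7 than with 7F8 by 0.54 (0.22 to 0.86, adjusted p = 0.153), and differed between 5G6 and 7F8 by 0.15 (−0.17 to 0.47, adjusted p = 0.913). The intervals allow differences of either small or substantial size, so like action of the compounds on these genes was not shown.

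The change of effect between 4 h and 48 h was tested as an interaction, and no gene of the family was called with any compound by limma, where 0, 0 and 0.00627% of all genes were called with 5G6, 6D7 and 7F8. At an unadjusted p under 0.05, 6, 10 and 8 genes passed with 5G6, 6D7 and 7F8, all toward lower values at 48 h, where 7.59, 7.75 and 8.67% of all genes passed. MRPL3 had the difference of −0.91 with 5G6 (adjusted p = 0.460), MRPL12 −0.83 with 6D7 (adjusted p = 0.457) and MRPS34 −0.82 with 7F8 (adjusted p = 0.378). Between the DMSO groups themselves, 48 h against 4 h, no gene of the family was called by limma, where 0% of all genes were, and 1 passed at an unadjusted p under 0.05, where 2.35% of all genes did. The median over the 78 genes in DMSO was −0.16, with 62 below 0, beside 0.17 over all tested genes, and so lay on the lower side of other genes at the later hour without a compound as well.

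The other genes of mitochondrial translation were read from lists at 48 h, where 2.11, 3.58 and 6.5% of all tested genes were called lower with 5G6, 6D7 and 7F8. Of 5 mitoribosomal proteins whose names lie outside the rule, 1 was lower with 7F8: GADD45GIP1, also called CRIF1, was at 87.1 and 68.5 TPM with DMSO and at 46.1 and 45.7 TPM with 7F8 (−0.74, SE 0.21, adjusted p = 0.0496). Of 28 assembly factors and ribosomal RNA modifiers, 0, 1 and 5 (0, 3.57 and 17.9%) were called lower with 5G6, 6D7 and 7F8, and 0 higher. MRM2, a methyltransferase of the large ribosomal RNA, was at 66.0 and 52.7 TPM with DMSO, 40.1 and 37.3 TPM with 5G6, 34.8 and 35.4 TPM with 6D7 (−0.73, adjusted p = 0.0240), and 33.4 and 34.0 TPM with 7F8 (−0.79, adjusted p = 0.0140). FASTKD2, METTL17 and MRM3, also needed for ribosomal RNA stability, assembly or methylation, were lower with 7F8 by log2 fold changes of −0.81, −0.84 and −0.65.

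Of 21 translation factors and messenger RNA partners, 1 (4.76%) was called lower with each compound, below the 6.5% of all genes with 7F8. It was SLIRP, which with LRPPRC stabilises mitochondrial messenger RNAs, at 293 and 246 TPM with DMSO, 168 and 136 TPM with 5G6, 145 and 158 TPM with 6D7, and 119 and 160.5 TPM with 7F8 (−0.82, −0.83 and −0.95, with adjusted p = 0.0406, 0.0342 and 0.0148). LRPPRC had log2 fold changes of −0.69, −0.71 and −0.78 and the elongation factor TUFM −0.52, −0.58 and −0.46, and none of these passed. The medians of the list were −0.44, −0.40 and −0.47.

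Of 18 genes of mitochondrial DNA upkeep and transcription and their nuclear regulators, 1, 1 and 3 (5.56, 5.56 and 16.7%) were called lower with 5G6, 6D7 and 7F8. TWNK, the helicase that replicates mitochondrial DNA, was at 39.5 and 37.1 TPM with DMSO, 20.8 and 16.1 TPM with 5G6, 16.3 and 18.0 TPM with 6D7, and 15.1 and 19.1 TPM with 7F8 (−1.02, −1.12 and −1.13, with adjusted p = 0.0395, 0.0235 and 0.0173). MYC was called with 7F8, at 67.9 and 63.2 TPM with DMSO and at 23.9 and 25.7 TPM with 7F8 (−1.37, SE 0.33, adjusted p = 0.0266), and so was SSBP1, the mitochondrial single-strand DNA binding protein (−0.68, adjusted p = 0.0303). TFAM (−0.82, −0.79 and −0.40), NRF1 (−0.40, −0.69 and −0.62), the ETS-family subunit GABPA (−0.35, −0.15 and −0.23) and the coactivator PPRC1 (−0.75, −0.42 and −1.06) did not pass in any comparison.

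The cytosolic ribosome was read in the same way. Of 83 tested genes for cytosolic ribosomal proteins, 1, 1 and 2 were called lower with 5G6, 6D7 and 7F8, and 0, 0 and 1 higher. These shares (1.205, 1.205 and 2.41% lower) were below the 2.11, 3.58 and 6.5% of all genes called lower, and 1.95, 2.39 and 2.29% of all genes were called higher. Their summed TPM at 48 h was 5.37% below DMSO with 5G6, and with 6D7 and 7F8 its means of 157269 and 173740 TPM were above the DMSO mean of 155411 TPM. The medians were −0.13, −0.03 and 0.11, and with the median-of-ratios size factors −0.04, 0.05 and 0.33, so the 6D7 sign depends on the scaling, while the 7F8 median was positive either way. RPL39L was the member called with all 3 compounds, at 68.7 and 55.8 TPM with DMSO and at 16.3 and 17.7 TPM with 7F8 (−1.81, adjusted p = 0.00416). RPS26 was also lower (−0.64) and RPL12 higher (0.62) with 7F8. A difference between the cytosolic and mitochondrial families was not tested.

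Respiratory chain and ATP synthase subunits encoded in the nucleus had medians between those of the 2 families. Of 78 tested genes 1, 1 and 8 (1.28, 1.28 and 10.3%) were called lower and 0 higher, where 2.11, 3.58 and 6.5% of all genes were called lower, so the 5G6 and 6D7 counts were below the background. The list had medians of −0.22, −0.24 and −0.37 (−0.13, −0.16 and −0.15 with the size factors). ATP5MC1, the ring subunit of ATP synthase, was called with each compound, at 602 and 500 TPM with DMSO, 323.5 and 298 TPM with 5G6, 359 and 337 TPM with 6D7, and 225 and 317 TPM with 7F8 (−0.82, −0.66 and −1.04). NDUFC1, COX8A and NDUFB10 were lower with 7F8 (−1.06, −0.66 and −0.71).

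**Figure D5:**
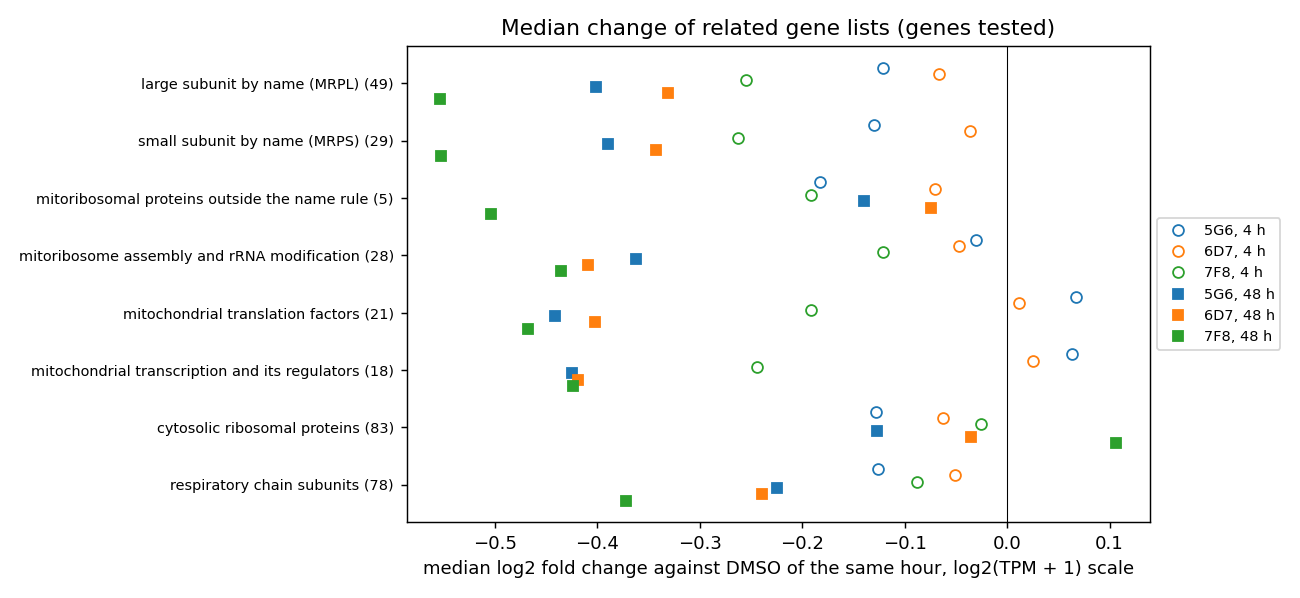
Median log2 fold change against DMSO of the same hour (horizontal, log2(TPM + 1) scale) for the mitochondrial ribosomal genes and related lists (vertical, with the number of genes tested); open circles are 4 h and filled squares 48 h, coloured by compound. At 48 h the MRPL and MRPS medians run from −0.33 to −0.55, and those of the cytosolic ribosomal proteins from −0.13 to 0.11.

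The ribosomal RNAs that these proteins bind were listed among the mitochondrial genes. On the scale of the rescaled nuclear TPM, RNR1, the small ribosomal RNA, was at 2942 and 2515 with DMSO at 48 h, 2477 and 2079 with 5G6, 2242 and 2476 with 6D7, and 2390 and 2375 with 7F8. RNR2, the large ribosomal RNA, was at 18978 and 24137 with DMSO, 20028 and 25032 with 5G6, 16455 and 26185 with 6D7, and 14803 and 20591 with 7F8. The RNR1 compound libraries all lay below both DMSO values, narrowly so in several, and the RNR2 groups overlapped. On the same scale the mitochondrial gene ND1 was at 15732 and 14987 with DMSO, 12903 and 14035 with 6D7, and 12306.5 and 12807 with 7F8. ND6 was at 7442 and 5615, 4723 and 4925, and 5373 and 4640 in the same order. The 6D7 values were near those of 7F8, whose mitochondrial share was 32.3 and 31.4%. Which mitochondrial genes account for the low 6D7 share was not examined. None of these RNAs was tested.

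Many of these genes start near the start of a gene on the opposite strand. The start of 29 of the 78 (37.2%) lay within 1000 bases of the start of another tested gene that runs the other way, where this held for 21.8% of 15921 tested genes on the main chromosomes. MRPL46 and MRPS11 form such a pair, with starts 65 bases apart, and had log2 fold changes of −0.64 and −0.46 with 7F8 at 48 h, with neither called. The values of a ribosomal gene and its partner were not always alike. MRPL43 starts 8 bases from TWNK, and its log2 fold changes were −0.10, −0.06 and −0.34, none of them called, where TWNK was called with all 3 compounds. MRPL57 starts 47 bases from SKA3, a gene of the kinetochore, and had −0.31, −0.41 and −0.25, against −1.77, −2.28 and −2.60 for SKA3, called with 6D7 and 7F8. MRPL27 starts 36 bases from EME1, an endonuclease subunit of DNA repair, and had −0.22, −0.01 and −0.25, against −1.58, −2.30 and −2.44 for EME1. Conversely MRPS34 starts 71 bases from EME2, whose values were 0.01, −0.22 and −0.07 where MRPS34 had −0.54, −0.50 and −0.996. In all, 30 of the 78 genes overlap another listed gene, 26 of them on the other strand, so that without strand information some reads could be assigned to either gene. Several genes of the family also have processed pseudogenes elsewhere in the genome, and how reads shared with them were assigned is not given in the sources used here.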

How the data were processed

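Each of 16 libraries had 1 deposited gene table. The TPM column was deposited by the authors already scaled to equal library totals, including mitochondrial genes. The deposited FPKM column is proportional to it within each library. Coverage was deposited, per the file headers, as the mean signal per gene without scaling. The submitters' processing notes name STAR 2.6.1a, featureCounts 1.6.3, StringTie 2.0 and GRCh38, without roles. Depth in aligned gigabases was computed from coverage and FPKM together, and no read counts were used.

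TPM was summed over rows of the same gene name, mitochondrial genes were dropped and each library was rescaled to 1000000. Genes with at least 1 TPM in at least 2 libraries were kept. Log2(TPM + 1) was fitted with limma 3.58.1 (R 4.3.3; variance trend; 8 group means; 8 residual degrees of freedom plus a median prior of 3.80). Tests were two-sided, and p-values were adjusted by Benjamini-Hochberg over all 15958 genes in each of 16 comparisons, with a threshold of 0.05. The procedure was tested on simulated data. The labels give 2 replicates per group without saying that they are separate cultures, so the spread behind each p may be technical. The 7-base YY1 and NRF1 cores were added after the data were seen. In the promoter search the motif letters were matched exactly on both strands, and overlaps between motifs were allowed.

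Alternatives were FPKM, mitochondrial genes kept, median-of-ratios size factors, another pseudocount (0.1), no filter, no variance trend, a replicate block, the libraries of the hour alone, each library left out and, added after the data were seen, coverage in place of TPM. The family, the lists and the tests were chosen with earlier results of these data known. Named genes were chosen by rule: up to 6 called each way per comparison by size of change (otherwise the 3 with the smallest p), the 3 highest and 3 lowest by mean TPM, the MRPS18 paralogs, MRPS36, MRPL58, MRPL12, MRPS30 and MRPS6, and, of other lists, up to 4 called genes and set regulators. Other names, such as MRPS15, MRPL54, MRPS33, MRPL34, MRPL53 and the opposite-strand partners, were chosen after their values were seen.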

Additional observations from a re-analysis of the deposited data

How the results depend on the processing

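The family's median log2 fold change stayed negative against DMSO under each alternative run, except with mitochondrial genes kept, where 6D7 at 48 h gave 0.081. With the median-of-ratios size factors it was −0.25 and −0.15 for 5G6 and 7F8 at 4 h and −0.31, −0.25 and −0.34 for 5G6, 6D7 and 7F8 at 48 h. With FPKM it was −0.21 for 5G6 at 4 h and −0.48 for 7F8 at 48 h. Without single replicates the medians at 4 h ran from −0.22 to −0.036 (5G6), −0.08 to −0.05 (6D7) and −0.28 to −0.23 (7F8), and at 48 h from −0.43 to −0.30, −0.39 to −0.28 and −0.61 to −0.43.

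Counts of called genes depended more on the setting. Keeping mitochondrial genes raises every nuclear gene of the 6D7 pair at 48 h against the other groups. Counts with 6D7 at 48 h under that setting are therefore not read as results about the family. For 5G6, 6D7 and 7F8 at 48 h they were 1, 2 and 3 with the size factors, and 0, 0 and 2 with the libraries of that hour alone, which leaves fewer degrees of freedom. For 5G6 the count was 7 with no filter and 1 with no variance trend. For 6D7 it was 3 with no variance trend and 0 with mitochondrial genes kept. Leaving out a single replicate of the groups compared lowered the counts with 5G6 and 7F8. With 6D7 the count rose without the second 6D7 replicate and fell in the other such runs. Between 6D7 and 7F8 at 48 h, 37 genes were called higher with 6D7 when mitochondrial genes were kept. In the comparisons with no call in the main fit, leaving out single replicates gave at most an isolated call. Except for the size factors, the share of all genes called under these settings is not given here, so the counts cannot be set against it.

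With the replicate number as a block the counts at 48 h were 19 (18 lower, 1 higher), 15 and 42, and 1 between 6D7 and 7F8 at 48 h. The share of all genes called with the block is not given here, so these counts cannot be set against it. The labels do not say what a replicate number shares. The correlation of same-numbered deviations was 0.355 to 0.588 within 4 h and 0.379 to 0.547 within 48 h. It was under 0.1 in 3 of 28 group pairs, each of them 6D7 at 48 h with a group at 4 h. Those 3 pairs do not bear on comparisons within an hour. The block was not used for the results above because the labels name no shared batch. Whatever same-numbered libraries share within an hour therefore stayed in the spread of the fit used there.

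MRPL3 with 7F8 at 48 h was called under 13 of 13 alternatives, MRPL15 under 11, MRPS34 under 10, and MRPL3 with 5G6 under 10. The other 25 calls held under 4 to 9 of 13, the fewest being MRPS16 with 7F8. With 2 replicates per group and no read counts, precision is set by the number of libraries. A difference that did not pass may be absent or undetected.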
